A study of Mus musculus with 12 samples.

Results

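The 10 genes described here encode the purinergic receptors and the ATP ectoenzyme of macrophages. They are the receptors for ATP and other nucleotides P2ry1, P2ry2, P2ry6, P2ry12, P2ry13, P2ry14, P2rx4 and P2rx7, the surface enzyme Entpd1 and the adenosine receptor Adora2b. They were picked by symbol, and all 10 were among the 14098 genes of the table and among the 11194 that were tested. P2ry1 belongs to a list of pro-regenerative genes that the study drew up from these same samples. Its calls below, and the shares of the 10 that count it, are therefore not independent of that list. P2rx4 and P2rx7 are chromosomal neighbours of Camkk2, the gene deleted in the knockout.

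Extracellular ATP, released by stressed, damaged or activated cells, opens the P2X channels P2rx4 and P2rx7, and ATP, ADP and the uracil nucleotides act on the G-protein-coupled P2Y receptors. Entpd1 (CD39) removes phosphates from ATP and ADP at the cell surface, and the adenosine that forms downstream is sensed by receptors such as Adora2b. In macrophages, P2rx7 is known for the potassium efflux that triggers the NLRP3 inflammasome, and P2ry12 is best known as a microglial and platelet receptor.

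BMDM, macrophages grown from mouse bone marrow with L929-conditioned medium, came from male and female C57Bl/6 mice of 8 to 10 weeks that were WT or lacked Camkk2 (Camkk2-/-, called KO). They were embedded in a collagen and hyaluronic acid hydrogel. The soft groups stayed in the soft gel, the soft+IL-4 groups received the cytokine IL-4 in it, and the stiff groups had the gel crosslinked with UV light and the photoinitiator Irgacure 2959 at 24 h, with a further 48 h of culture. By the methods of the study, the stiff gel was also prepared with more collagen than the soft gel, and the effects of collagen content, UV light, photoinitiator and stiffness cannot be told apart. All groups were released with collagenase IV, and the sex and the animal behind each library are not given in the labels. Each of the 6 groups (WT soft, WT soft+IL-4, WT stiff, KO soft, KO soft+IL-4 and KO stiff) had 2 libraries, which the labels call biological replicates. The titles of both IL-4 libraries of a genotype carry the same number 1 for the soft gel, and whether they share a culture is not given. Values are TPM, the share of a library's transcripts after division by gene length, scaled to a common total of 1000000. TPM keeps no read depth, so no counting error can be given. A DE gene here had a Benjamini-Hochberg adjusted p under 0.05 and at least a 2-fold change in the limma model on log2(TPM + 1), a scale that understates the change of genes at low TPM. With 2 libraries a group, an exact permutation test cannot reach 0.05, and the p-values rest on the spread limma pools over the groups. Groups that did not overlap are therefore only described, and the share of all genes with such groups was not determined.

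Several libraries stood apart before any purinergic gene was compared. Camkk2 itself read 44.2 and 11.7 TPM in WT soft, 30.5 and 29.8 TPM with IL-4 in WT, and 23.3 and 23.7 TPM with stiffening in WT. Its 2 values in KO soft were 46.6 and 11.5 TPM, those in KO soft+IL-4 were 11.5 and 8.54 TPM, and those in KO stiff were 37.7 and 10.0 TPM. The libraries labelled WT soft 2, KO soft 1 and KO stiff 1 therefore went against their genotype, although a gene-wide TPM cannot say which exons were read. The results for the 10 genes are also given without these 3 libraries. That leaves WT soft 1, KO soft 2 and KO stiff 2 each alone in its group, so genotype is mixed with replicate number in those fits. The library labelled WT stiff 2 correlated best with WT soft+IL-4 2 (r = 0.996 across genes, which are not independent replicates), and at 0.951 with WT stiff 1. For WT stiff 1, 0.951 was the highest r with any library, while every other library reached 0.984 or more with its closest. By this measure WT stiff 1 stood furthest apart. Macrophage identity was clear, with Adgre1 between 460 and 1102 TPM and Csf1r between 1305 and 1986 TPM in all 12 libraries. The summed level of the 8 macrophage markers, mostly Lyz2, was 51475 to 57980 TPM in both soft groups and 45977 to 48589 TPM in KO stiff, but 23571 to 25557 TPM in WT soft+IL-4, KO soft+IL-4 and WT stiff. The sum of the 7 dendritic cell markers was 130 to 147 TPM in the soft groups, 634 to 673 TPM in the IL-4 groups, 192 and 639 TPM for WT stiff and 260 to 270 TPM in KO stiff. It was nearly all Itgax, and the defining markers Xcr1 and Clec9a stayed under 1 TPM in every library. Their part in the results below was not tested. In these bulk samples, fewer cells of a type and less RNA per cell cannot be told apart.

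P2rx4 and P2ry6 were by far the most abundant of the 10 transcripts, and P2ry13 and P2ry12 were close to the floor of the filter. P2rx4, a calcium-permeable ATP-gated channel found largely on lysosomes, had a mean of 302 TPM over the 12 libraries, above 96.7% of all genes in the table. P2ry6, the UDP receptor, followed at 192 TPM. Both together made up 76.5% to 83.4% of the summed TPM of the 10 genes. Entpd1 (39.5 TPM), P2rx7 (32.2 TPM) and P2ry14 (24.3 TPM) were intermediate. P2ry1 had a mean of 10.8 TPM, P2ry2 6.45 TPM, Adora2b 5.95 TPM, P2ry13 1.59 TPM and P2ry12 0.949 TPM. P2rx4 was above P2ry6, P2ry6 above Entpd1, P2rx7 above P2ry14 and P2ry14 above P2ry1 in 12 of 12 libraries, and Entpd1 above P2rx7 in 11 of 12. The lower part of the order was less settled, with P2ry1 above P2ry2 in 9, P2ry2 above Adora2b in 5, and both Adora2b above P2ry13 and P2ry13 above P2ry12 in 10 of 12.

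**Figure D1:**
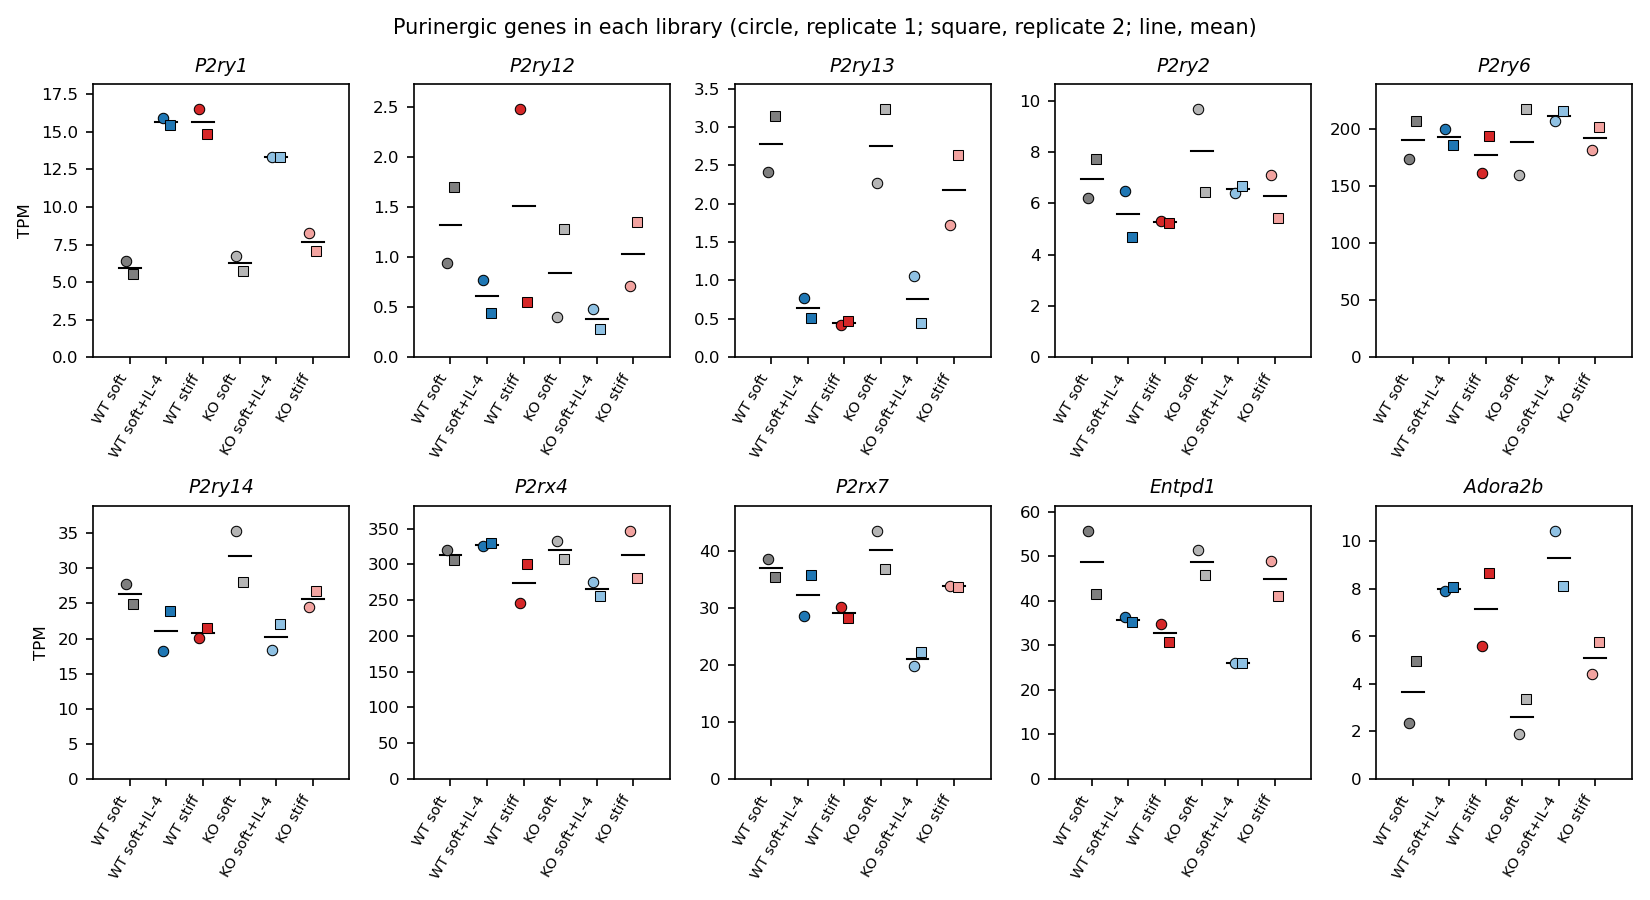
TPM of each of the 10 genes in every library (vertical axis from 0, separate for each gene), with the 6 groups along the horizontal axis, circles for replicate 1, squares for replicate 2 and a line at the mean of 2. P2ry1 sits at 13.3 TPM or more in both IL-4 groups and at 14.9 and 16.5 TPM in the WT stiff libraries, against 8.25 TPM or less elsewhere, while P2ry13 takes the opposite course and P2ry6 and P2rx4 stay within 1.41-fold.

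The genes lie in clusters on the mouse genome (GRCm38, GENCODE vM21). P2ry14 (chr3:59113855-59153618), P2ry13 (chr3:59207892-59210882) and P2ry12 (chr3:59216272-59262871) sit side by side on the minus strand, all inside the gene Med12l on the plus strand. P2ry1 (chr3:61002795-61008982, plus strand) lies 1740 kb beyond P2ry12. P2rx7 (chr5:122643911-122691432) and P2rx4 (chr5:122707544-122729738) are 16.11 kb apart on the plus strand, and P2rx4 ends 1.431 kb from Camkk2 (chr5:122731170-122779409, minus strand). P2ry6 (chr7:100937630-100974649) and P2ry2 (chr7:100996568-101012866) are 21.92 kb apart on the minus strand, Adora2b is at chr11:62248984-62266453 and Entpd1 at chr19:40612366-40741602. The libraries were strand-specific, but whether the values were counted by strand is not given in the sources used here. Med12l, the gene around the 3 receptors, was at 0.236 TPM or less in every library.

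The promoters of the 3 genes that were DE genes with IL-4 differed in composition. The sequences below are the 250 bases before the RefSeq start (GRCm38.p6), 5′ to 3′ on the gene's strand, with each CG dinucleotide in capitals. P2ry1 and Adora2b, whose levels were higher with IL-4, are shown beside P2ry13, whose level was lower. P2ry1 is at chr3:61002535-61002784 (plus strand), Adora2b at chr11:62248734-62248983 (plus strand) and P2ry13 at chr3:59210883-59211132 (minus strand).
P2ry1: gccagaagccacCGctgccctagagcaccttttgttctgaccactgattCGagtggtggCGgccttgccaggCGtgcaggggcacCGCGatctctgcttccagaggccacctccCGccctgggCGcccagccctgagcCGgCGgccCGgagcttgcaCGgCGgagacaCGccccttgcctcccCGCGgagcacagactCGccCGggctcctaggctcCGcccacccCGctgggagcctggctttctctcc
Adora2b: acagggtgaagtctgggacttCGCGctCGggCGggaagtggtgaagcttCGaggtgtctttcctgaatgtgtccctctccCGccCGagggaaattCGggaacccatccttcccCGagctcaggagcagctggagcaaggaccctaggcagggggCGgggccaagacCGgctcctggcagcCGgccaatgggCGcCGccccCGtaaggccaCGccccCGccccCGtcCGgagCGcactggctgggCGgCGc
P2ry13: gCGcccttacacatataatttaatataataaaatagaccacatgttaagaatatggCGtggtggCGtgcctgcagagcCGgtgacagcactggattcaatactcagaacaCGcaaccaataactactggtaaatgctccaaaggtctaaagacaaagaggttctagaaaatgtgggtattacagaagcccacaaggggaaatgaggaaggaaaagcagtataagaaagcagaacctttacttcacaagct
P2ry1 held 20 CG dinucleotides and 70.8% G and C, and Adora2b held 22 and 69.6%. P2ry13 held 5 and 41.6%, against a median of 6 and 52.4% over 32851 promoters of the same length. As many as 20 were held by 17.9% of those promoters, as many as 22 by 14.8% and as many as 5 by 55.6%. High CG counts were also found in members that did not rise with IL-4. The windows of P2ry2, no DE gene, held 21 and 26. Those of Entpd1, lower with IL-4 over both genotypes at no fold limit, held 18 and 8. A link between CG content and direction was not tested. A search of 15 such windows of 9 of the 10 genes on both strands, since these motifs read the same on either strand, found neither TTCNNNNGAA, the motif that STAT6 downstream of IL-4 is known to prefer, nor TTCNNNGAA, that of other STAT proteins. They occur in 5.85% and 7.02% of all promoters, and no match says only that these letters are not in these windows.

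IL-4 in the soft matrix was compared with the soft matrix alone, first in WT BMDM. P2ry1, a receptor for ADP, rose and P2ry13, another ADP receptor, fell. These were 2 of 10 genes, and 421 of 11194 genes (3.76%) were DE genes in this comparison. P2ry1 measured 6.40 and 5.52 TPM in WT soft against 15.9 and 15.4 TPM in WT soft+IL-4. Its groups did not overlap, the means differed by 2.63-fold (5.96 ± 0.623 against 15.7 ± 0.374 TPM, SD, n = 2), and the log2 fold change was 1.26 (SE 0.134, adjusted p = 0.000528). P2ry13 measured 2.41 and 3.14 TPM in WT soft against 0.777 and 0.509 TPM in WT soft+IL-4. Both libraries with IL-4 were below both without it, with a log2 difference of -1.20 (SE 0.269, adjusted p = 0.0213).

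P2ry1 remained a DE gene without any 1 of the 4 libraries and without the 3 that went against their genotype (log2 fold change 1.17, adjusted p = 0.0394). P2ry13 did not. Without WT soft 1 its adjusted p was 0.0672, without WT soft 2 0.145, without WT soft+IL-4 1 0.0878, without WT soft+IL-4 2 0.124 and without the 3 libraries 0.259, with log2 fold changes between -1.34 and -1.06. In such fits the library left alone in its group is assumed to vary like the other groups.

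Adora2b, the low-affinity adenosine receptor, measured 2.33 and 4.95 TPM in WT soft against 7.89 and 8.07 TPM in WT soft+IL-4, and its log2 fold change of 1.01 (SE 0.316) missed the threshold (adjusted p = 0.0733; 1.43 and 0.0984 without the 3 libraries). Entpd1 had a log2 difference of -0.42 (SE 0.147, adjusted p = 0.105). The remaining 6 genes ranged from -0.52 for P2ry12 (SE 0.415) to 0.06 for P2rx4 (SE 0.125), each with an adjusted p of 0.259 or more. The median log2 fold change of the 10 was -0.24, and that of all genes tested -0.05.

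In KO BMDM, IL-4 gave 2 DE genes of the 10 against 3.65% of all genes. Adora2b rose and P2ry13 fell. Adora2b measured 1.87 and 3.35 TPM in KO soft against 10.4 and 8.11 TPM in KO soft+IL-4, 3.56-fold between means, or 1.53 as the log2 fold change (SE 0.316, adjusted p = 0.0151). P2ry13 measured 2.27 and 3.23 TPM in KO soft against 1.06 and 0.450 TPM in KO soft+IL-4 (log2 fold change -1.11, SE 0.269, adjusted p = 0.0306). In both cases the 2 groups did not overlap.

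More of the genes passed in KO when no fold was asked for, 6 of 10 against 10.3% of all genes. P2ry1 measured 6.76 and 5.74 TPM in KO soft against 13.3 and 13.3 TPM in KO soft+IL-4. Its log2 fold change there, 0.99 (SE 0.134, adjusted p = 0.0020), lay just under the 2-fold limit. P2rx7 measured 43.6 and 36.9 TPM in KO soft against 19.8 and 22.2 TPM in KO soft+IL-4, a log2 difference of -0.90 (SE 0.130, adjusted p = 0.0026). Entpd1 was at 51.4 and 45.9 TPM against 26.0 and 26.1 TPM (log2 fold change -0.87, SE 0.147, adjusted p = 0.0055). P2ry14, a receptor for UDP-sugars, was at 35.4 and 28.1 TPM against 18.4 and 22.0 TPM (log2 fold change -0.62, SE 0.162, adjusted p = 0.0402). All 4 of these genes had groups that did not overlap. In WT the same rule passed 2 of 10 genes, P2ry1 and P2ry13, against 10.7% of all genes.

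Without KO soft 1, KO stiff 1 and WT soft 2, the 4 log2 fold changes in KO were 1.09 for P2ry1 (adjusted p = 0.0360, now a DE gene), -0.79 for P2rx7 (adjusted p = 0.108), -0.79 for Entpd1 (adjusted p = 0.0550) and -0.46 for P2ry14 (adjusted p = 0.390). Adora2b was at 1.23 (adjusted p = 0.120) and P2ry13 at -1.29 (adjusted p = 0.177). Leaving out 1 library at a time ended the call of Adora2b without KO soft 1 (adjusted p = 0.108), KO soft+IL-4 1 (0.126) or KO soft+IL-4 2 (0.0602), and that of P2ry13 without any 1 of the 4 (adjusted p between 0.0653 and 0.207).

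**Figure D2:**
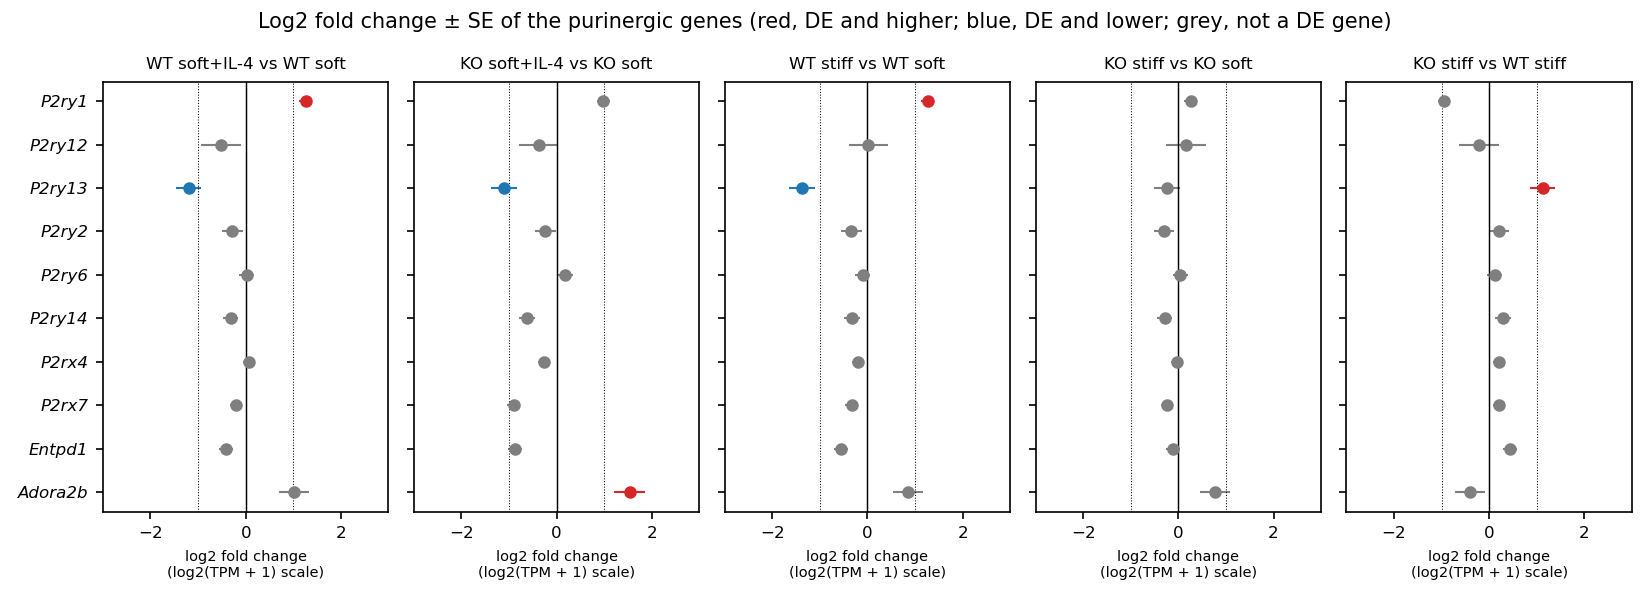
Log2 fold change on the log2(TPM + 1) scale (horizontal axis, with bars of 1 SE from the limma model) of the 10 genes in 5 comparisons, dotted lines at a 2-fold change. P2ry1 lies at 1.26 in both WT comparisons with the soft matrix and at 0.26 for KO stiff against KO soft, and P2ry13 lies at -1.11 to -1.38 where it fell.

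Averaged over both genotypes, IL-4 gave 3 DE genes of 10 against 4.35% of all genes. They were P2ry1 (log2 fold change 1.13, SE 0.0950, adjusted p = 5.4e-05), Adora2b (1.27, SE 0.223, adjusted p = 0.0032) and P2ry13 (-1.15, SE 0.190, adjusted p = 0.0023). Without the 3 libraries against their genotype, P2ry1 (1.13, adjusted p = 0.0058) and Adora2b (1.33, adjusted p = 0.0201) remained DE genes, and P2ry13 was at -1.17 (adjusted p = 0.0524). With no fold asked for, Entpd1 (-0.65, adjusted p = 0.0020), P2rx7 (-0.55, adjusted p = 0.0025) and P2ry14 (-0.47, adjusted p = 0.0163) also passed, which makes 6 of 10 against 22.9% of all genes. Without the same 3 libraries, the adjusted p was 0.0141 for Entpd1, 0.0661 for P2rx7 and 0.157 for P2ry14.

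Whether the response to IL-4 differed between genotypes was tested as an interaction. It gave 0 DE genes of 11194 (0%) with limma, where 165 had an unadjusted p under 0.05, and among the 10 genes P2rx7 was the 1 with an unadjusted p under 0.05. Its interaction was -0.71 (SE 0.184, unadjusted p = 0.0038), which failed the correction (adjusted p = 1.00), and without the 3 libraries it was -0.53 (unadjusted p = 0.0816). KO soft+IL-4 against WT soft+IL-4 likewise gave 0 DE genes (0%), with 233 genes and 3 of the 10 at an unadjusted p under 0.05. P2rx7 was at 19.8 and 22.2 TPM in KO and at 28.7 and 35.8 TPM in WT (log2 fold change -0.59, SE 0.130, unadjusted p = 0.0013). Entpd1 was at 26.0 and 26.1 TPM against 36.3 and 35.3 TPM (-0.44, SE 0.147, unadjusted p = 0.0139), and P2rx4 at 276 and 256 TPM against 325 and 329 TPM (-0.30, SE 0.125, unadjusted p = 0.0395). All 3 were lower in both KO libraries than in both WT libraries, and each had an adjusted p of 1. P2ry1 was lower in the same way, and Adora2b and P2ry6 were higher in both KO libraries. None of the 4 libraries in this comparison went against its genotype, and with the 3 others left out of the fit the unadjusted p was 0.0070 for P2rx7, 0.0076 for Entpd1 and 0.0563 for P2rx4. Without treatment, KO soft against WT soft gave 0 DE genes (0%), with 130 genes and 0 of the 10 at an unadjusted p under 0.05, and the 2 groups hold 2 of the 3 libraries that went against their genotype. Without these 3, KO soft 2 was set against WT soft 1, so genotype and replicate number could not be told apart.

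Stiffening was compared with the soft matrix in WT. P2ry1 rose and P2ry13 fell, 2 of 10 genes against 3.97% of all genes. That share depended on the library, since 444 DE genes became 1107 without WT stiff 2, 276 without WT soft 2, 132 without the 3 libraries against their genotype and 23 in a model of the 4 libraries compared. This comparison and that of IL-4 in WT share the WT soft libraries. P2ry1 was at 16.5 and 14.9 TPM in WT stiff, above the 6.40 and 5.52 TPM of WT soft (2.63-fold between means, log2 fold change 1.26, SE 0.134, adjusted p = 0.000469). P2ry13 was at 0.415 and 0.477 TPM, below the 2.41 and 3.14 TPM of WT soft (log2 fold change -1.38, SE 0.269, adjusted p = 0.0117). Both genes had similar levels in WT stiff 1 and WT stiff 2, although these libraries differed widely over all genes. Without the 3 libraries against their genotype, P2ry1 stayed a DE gene (1.17, adjusted p = 0.0382) and P2ry13 did not (-1.24, adjusted p = 0.197), and without WT soft 2 alone the adjusted p of P2ry13 was 0.0932. In a model of these 4 libraries alone, neither was a DE gene (adjusted p = 0.0889 for P2ry1 and 0.191 for P2ry13).

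With no fold asked for, Entpd1 also passed, 3 of 10 genes against 10.6% of all genes. It was at 34.8 and 30.7 TPM in WT stiff against 55.8 and 41.7 TPM in WT soft (log2 fold change -0.55, SE 0.147, adjusted p = 0.0442), and at an adjusted p of 0.274 without WT soft 1, 0.0753 without WT stiff 2 and 0.0724 without the 3 libraries. Adora2b, at 5.60 and 8.66 TPM against 2.33 and 4.95 TPM, had a log2 difference of 0.84 (SE 0.316, adjusted p = 0.137), and P2rx7 one of -0.33 (SE 0.130, adjusted p = 0.158). The median of the 10 was -0.26, and that of all genes 0.02. WT stiff against WT soft+IL-4 gave 0 DE genes (0%) with limma and 557 genes at an unadjusted p under 0.05, none of them among the 10. Without WT stiff 2, the library close to WT soft+IL-4 2, it gave 955 DE genes and again none of the 10. P2ry1 had a log2 fold change of -0.0022 (SE 0.134).

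In KO BMDM, stiffening gave 5 DE genes in all (0.0447%) and 0 of the 10. P2ry1 measured 8.25 and 7.06 TPM in KO stiff against 6.76 and 5.74 TPM in KO soft (log2 fold change 0.26, SE 0.134, adjusted p = 1). P2ry13 was at 1.72 and 2.64 TPM against 2.27 and 3.23 TPM (log2 fold change -0.24, SE 0.269), with overlapping groups. Adora2b, at 4.41 and 5.74 TPM against 1.87 and 3.35 TPM (0.78, SE 0.316), was the 1 gene of the 10 with an unadjusted p under 0.05 (unadjusted p = 0.0356). With the 3 libraries left out, the log2 fold changes were 0.26 for P2ry1, -0.22 for P2ry13 and 0.63 for Adora2b (unadjusted p = 0.108).

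The difference between genotypes in the response to stiffening was itself a DE call for P2ry1, 1 of 10 genes against 0.67% of all genes. The interaction was -1.01 on the log2 scale (SE 0.190, adjusted p = 0.0469), close to both limits. Without WT stiff 1 it was -0.94 (adjusted p = 0.0425), and without WT stiff 2 it remained a DE call, where 892 of 11182 genes were called in place of 75 of 11194. Without any 1 of the 6 other libraries the adjusted p lay between 0.0686 and 0.205, and without the 3 against their genotype it was 0.885 at a log2 value of -0.91. In a model of the 8 libraries compared, 0 genes were called. P2ry13 had an interaction of 1.14 (adjusted p = 0.274; 1.02 and 0.998 without the 3 libraries).

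KO stiff was also compared directly with WT stiff. P2ry13 was the DE gene among the 10, against 1.98% of all genes, at 1.72 and 2.64 TPM in KO stiff and 0.415 and 0.477 TPM in WT stiff (4.88-fold between means, log2 fold change 1.12, SE 0.269, adjusted p = 0.0470). With the replicate number as a block its adjusted p was 0.0635 and the call was lost. Over all genes, the 222 DE genes became 1008 without WT stiff 2, 106 without KO stiff 1, 92 without KO stiff 2 and 0 in a model of the 4 libraries compared. P2ry1 measured 8.25 and 7.06 TPM in KO stiff against 16.5 and 14.9 TPM in WT stiff. The means differed by 2.05-fold, the log2 fold change was -0.95 (SE 0.134, adjusted p = 0.0048), and P2ry1 passed with no fold asked for, as 1 of 2 genes of the 10 against 4.93% of all genes. Without the 3 libraries against their genotype, the log2 fold change of P2ry1 was -1.05 (adjusted p = 0.0812) and that of P2ry13 1.33 (adjusted p = 0.279). Without 1 library, the call of P2ry13 was lost without WT stiff 1 (adjusted p = 0.0821), KO stiff 1 (0.116) or KO stiff 2 (0.277), and P2ry1 was at an adjusted p of 0.0582 without KO stiff 2.

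**Figure D3:**
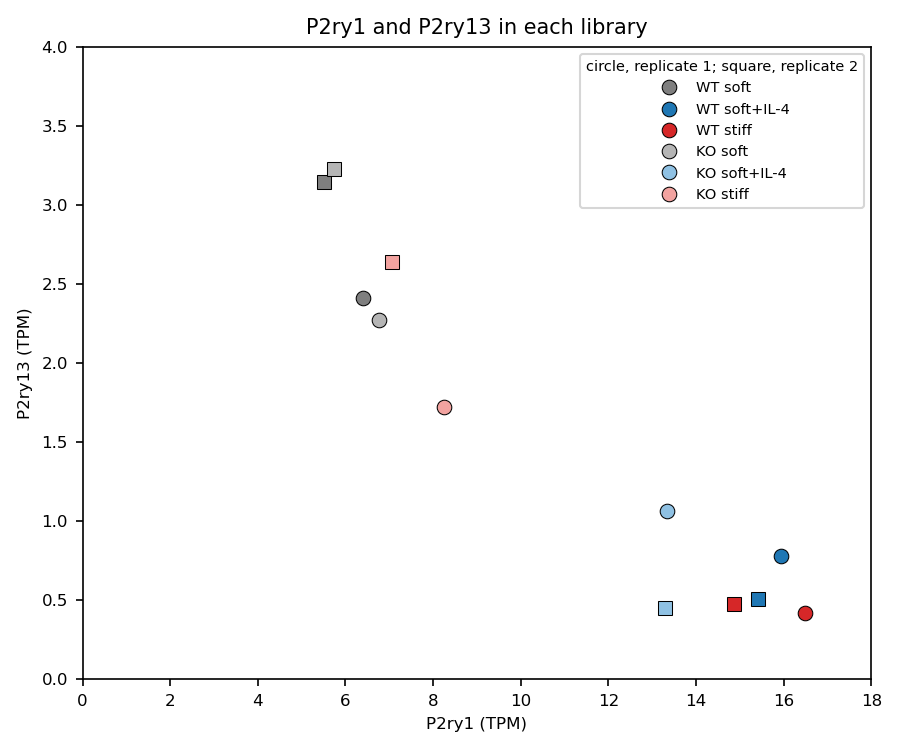
P2ry1 (horizontal axis, TPM) against P2ry13 (vertical axis, TPM) in the 12 libraries, coloured by group, circles for replicate 1 and squares for replicate 2. The 6 libraries of the IL-4 groups and WT stiff lie at high P2ry1 and at 1.06 TPM or less of P2ry13, and the 6 others lie at low P2ry1 and at 1.72 TPM or more of P2ry13.

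Across the 12 libraries, the ratio of P2ry1 to P2ry13 in TPM was 1.75 to 4.80 in both soft groups and KO stiff, and 12.6 to 39.7 in both IL-4 groups and WT stiff. Both receptors respond to ADP, and P2ry1 is known to couple to calcium release while P2ry13 couples to inhibition of cAMP. Since the genes were called in opposite directions between these libraries, the gap between the ratios restates those calls.

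The genes whose pattern over the 12 libraries was closest to P2ry1 were Pfkp (r = 0.994), which encodes a phosphofructokinase of glycolysis, Stt3b (0.991), a subunit of the oligosaccharyltransferase, and Vwf (0.990), von Willebrand factor. Closest to P2ry13 were Adrbk1 (0.985), a receptor kinase, Nfkbiz (0.981), a regulator of NF-κB target genes, and Hp (0.980), haptoglobin. Entpd1 was closest to Cab39 (0.980), Lhfpl2 (0.966) and the Fc receptor Fcgr4 (0.963). Adora2b was closest to Sema6d (0.960), Erh (0.958) and Plk3 (0.951). P2rx7 was closest to Chmp1b (0.926), Apoc2 (0.915) and Entpd1 (0.902). P2ry12 followed F13a1 (0.972), Agbl5 (0.942) and Phf21a (0.936), P2ry14 followed Hist1h3d (0.950), Tnfsf10 (0.948) and A630033H20Rik (0.916), and P2ry6 followed H2-Ab1 (0.923), Ubfd1 (0.916) and Ciita (0.914). P2rx4 (Fabp5 0.912, Cd72 0.896, Ifi204 0.891) and P2ry2 (Cecr5 0.860, Tpm4 0.859, Ccar2 0.849) had the least close partners. These are Pearson correlations of log2(TPM + 1), picked as the highest of all genes tested.

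The remaining receptors gave no DE call in any comparison. P2ry6 ranged from 160 to 218 TPM, a 1.36-fold range, with both extremes in the 2 libraries of KO soft. P2rx4 ranged from 246 TPM in WT stiff 1 to 347 TPM in KO stiff 1, a 1.41-fold range. P2ry2, a receptor for ATP and UTP, read 6.21 and 7.73 TPM in WT soft, with 6.50 and 4.67 TPM under IL-4 and 5.30 and 5.23 TPM after stiffening. The same 3 pairs in KO were 9.67 and 6.43 TPM, 6.41 and 6.69 TPM, and 7.11 and 5.43 TPM. Its groups had log2 fold changes between -0.34 and 0.21, each smaller than 2 SE. P2ry12 ranged from 0.280 to 2.48 TPM, and its highest and a low value, 2.48 and 0.549 TPM, were the 2 libraries of WT stiff. At such levels the library matters, since the share of all genes with a TPM of 0 was 10.7% to 13.4% in libraries numbered 1 and 5.90% to 7.54% in those numbered 2. P2ry14 was at 24.9 to 35.4 TPM in the soft groups, 18.2 to 24.0 TPM in the IL-4 groups, 20.0 and 21.5 TPM for WT stiff and 24.5 and 26.8 TPM in KO stiff.

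**Figure D4:**
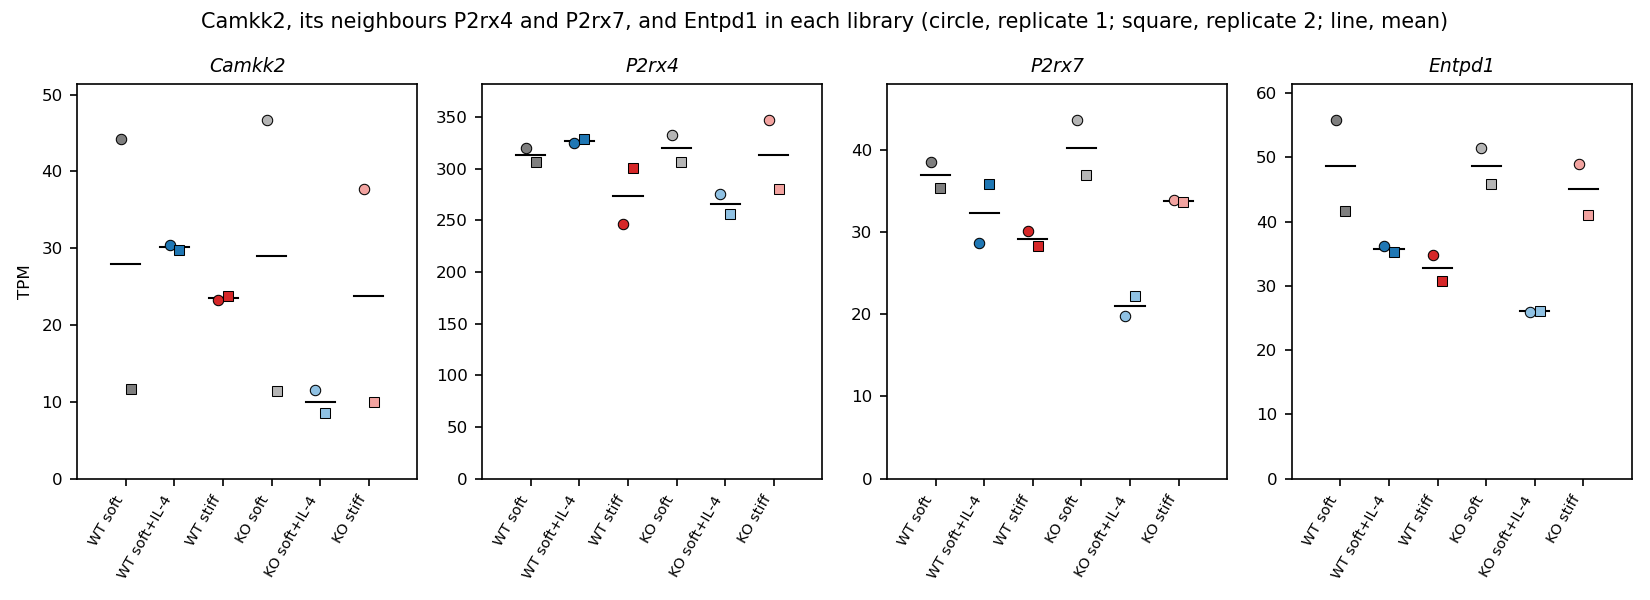
TPM of Camkk2, P2rx4, P2rx7 and Entpd1 in every library (vertical axes from 0), with circles for replicate 1, squares for replicate 2 and a line at the mean of 2. Camkk2 is at 37.7 TPM or more in replicate 1 of WT soft, of KO soft and of KO stiff, and P2rx7 and Entpd1 have their lowest values in KO soft+IL-4.

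Camkk2 and its neighbours P2rx4 and P2rx7 were all lower in both KO soft+IL-4 libraries than in both WT soft+IL-4 libraries, a pair of groups in which all 4 Camkk2 levels followed their labels. Entpd1 on chromosome 19 was lower in the same way (26.0 and 26.1 against 36.3 and 35.3 TPM), and a part of the locus was not tested. Of the other listed chromosome 5 genes, Anapc5, Rnf34, Kdm2b, Tmem120b and Arpc3 were also lower, and Rhof, Oasl1 and Oasl2 were higher. Camkk2 had a log2 fold change of -1.51 there (SE 0.756, unadjusted p = 0.0758), in a comparison where no gene was a DE gene. In the 3 groups in which Camkk2 differed widely between replicates, both neighbours were higher in the library with the higher Camkk2, by little beside the change in Camkk2. P2rx4 was at 320 and 306 TPM in WT soft, 333 and 307 TPM in KO soft and 347 and 280 TPM in KO stiff. P2rx7 was at 38.6 and 35.4 TPM in WT soft, 43.6 and 36.9 TPM in KO soft and 33.9 and 33.7 TPM in KO stiff. In each of these 3 groups the higher Camkk2 was in replicate 1. Entpd1 was also higher there, at 55.8 and 41.7 TPM in WT soft, 51.4 and 45.9 TPM in KO soft and 48.9 and 41.1 TPM in KO stiff. P2ry1 was likewise higher in replicate 1 of all 3 groups, and P2ry6, P2ry12, P2ry13 and Adora2b were lower.

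Genes of the wider pathway were read from lists written with earlier results of these data known. Of 8 other P2 receptors, 4 were in the table and 1, the channel P2rx5, was tested. It ranged from 0.214 to 4.26 TPM and was no DE gene. Of 2 other adenosine receptors tested, Adora2a was at 0.756 to 2.22 TPM and Adora3 at 1.43 TPM or less, and neither was a DE gene in any comparison. The 4 genes tested for ATP release, the channels Panx1, Lrrc8a and Vdac1 and the vesicular transporter Slc17a9, gave no DE call either. A list of ectonucleotidases and related enzymes, among them Bst1 and Adprh, held 9 tested genes other than Entpd1. Of these 1 was a DE gene, Enpp4, which cleaves dinucleotides. It fell with IL-4 in KO (1 of 9 against 3.65% of all genes), from 2.55 and 2.40 TPM to 0.636 and 0.439 TPM (log2 fold change -1.18, SE 0.249, adjusted p = 0.0165; 0.198 without the 3 libraries against their genotype), and was at 1.11 and 2.21 TPM against 0.409 and 0.321 TPM in WT.

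Among 10 genes of adenosine uptake and breakdown, the concentrative nucleoside transporter Slc28a2 and the AMP deaminase Ampd3 fell with IL-4 in WT, 2 of 10 against 3.76% of all genes. Slc28a2 measured 18.9 and 14.3 TPM in WT soft against 5.39 and 6.33 TPM in WT soft+IL-4 (log2 fold change -1.35, SE 0.266, adjusted p = 0.0117). In KO it fell from 14.8 and 14.6 TPM to 5.95 and 6.69 TPM (-1.10, SE 0.266, adjusted p = 0.0296). Ampd3 was at 19.7 and 25.6 TPM in WT soft and at 10.7 and 9.60 TPM with IL-4 (-1.07, SE 0.195, adjusted p = 0.0084). Without the 3 libraries, these were -1.54 (adjusted p = 0.151) and -1.09 (0.274) for Slc28a2 and -0.89 (0.143) for Ampd3. Leaving out 1 library at a time ended the call of Slc28a2 in WT without WT soft 1, WT soft+IL-4 1 or WT soft+IL-4 2 (adjusted p = 0.0918, 0.0993 and 0.0529) and in KO without any 1 of the 4 (adjusted p between 0.113 and 0.180), that of Ampd3 without WT soft 2 or WT soft+IL-4 2 (0.0763 and 0.0632), and that of Enpp4 in KO without any 1 of the 4 (0.0809 to 0.120). In WT stiff, Slc28a2 was at 12.8 and 6.08 TPM, so its 2 libraries spanned the range between WT soft and WT soft+IL-4.

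Of 10 tested genes of the P2rx7 and inflammasome list, Nlrp3, the inflammasome sensor, and Il1b, which encodes the cytokine IL-1β, were DE genes. They were 2 of 10 for IL-4 in WT (3.76% of all genes), for stiffening in WT (3.97%) and for IL-4 in KO (3.65%). Nlrp3 was at 20.1 and 27.1 TPM in WT soft, 4.49 and 5.43 TPM in WT soft+IL-4 (log2 fold change -2.03, SE 0.311, adjusted p = 0.0036) and 12.2 and 5.05 TPM in WT stiff (-1.45, SE 0.311, adjusted p = 0.0178). In KO it was at 20.0 and 25.7 TPM in soft, 5.44 and 5.48 TPM with IL-4 (-1.87, SE 0.311, adjusted p = 0.0052) and 17.1 and 19.2 TPM in stiff. The levels with IL-4 were below those of soft in both genotypes, and WT stiff 2 lay within the range of WT soft+IL-4 while WT stiff 1 did not.

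Il1b was at 14.5 and 17.4 TPM in WT soft, 4.61 and 3.87 TPM in WT soft+IL-4 (-1.69, SE 0.347, adjusted p = 0.0144) and 0.961 and 2.87 TPM in WT stiff (-2.61, SE 0.347, adjusted p = 0.0016). In KO it was at 9.53 and 17.2 TPM in soft, 3.98 and 3.30 TPM with IL-4 (-1.58, SE 0.347, adjusted p = 0.0196) and 10.2 and 14.9 TPM in stiff. Il1b was higher in KO stiff than in WT stiff (log2 fold change 2.28, SE 0.347, adjusted p = 0.0066), and its response to stiffening differed between genotypes (interaction 2.56, SE 0.490, adjusted p = 0.0497). P2rx7 itself was no DE gene in any of these comparisons, and the sensor partner Nek7, the adaptor Pycard and Casp1 were not either. Without the 3 libraries against their genotype, the adjusted p of Nlrp3 was 0.138, 0.268 and 0.0940 for WT IL-4, WT stiff and KO IL-4, and that of Il1b was 0.165, 0.0558, 0.0889, 0.0851 for KO stiff against WT stiff, and 0.885 for the interaction. In each of these the direction was the same as with all libraries. Leaving out 1 library ended the call of Nlrp3 in WT stiff without WT soft 1, WT soft 2 or WT stiff 2 (adjusted p = 0.0526 and 0.130, and a log2 fold change of -0.89). It ended that of Il1b without any 1 of the 4 libraries for IL-4 in WT (adjusted p between 0.0592 and 0.103). For IL-4 in KO it did so without KO soft 2, KO soft+IL-4 1 or KO soft+IL-4 2 (0.135, 0.0933 and 0.126), for KO stiff against WT stiff without KO stiff 2 (0.0684), and for the interaction without any 1 of the 6 soft or KO libraries among the 8 (0.0560 to 0.205).

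**Figure D5:**
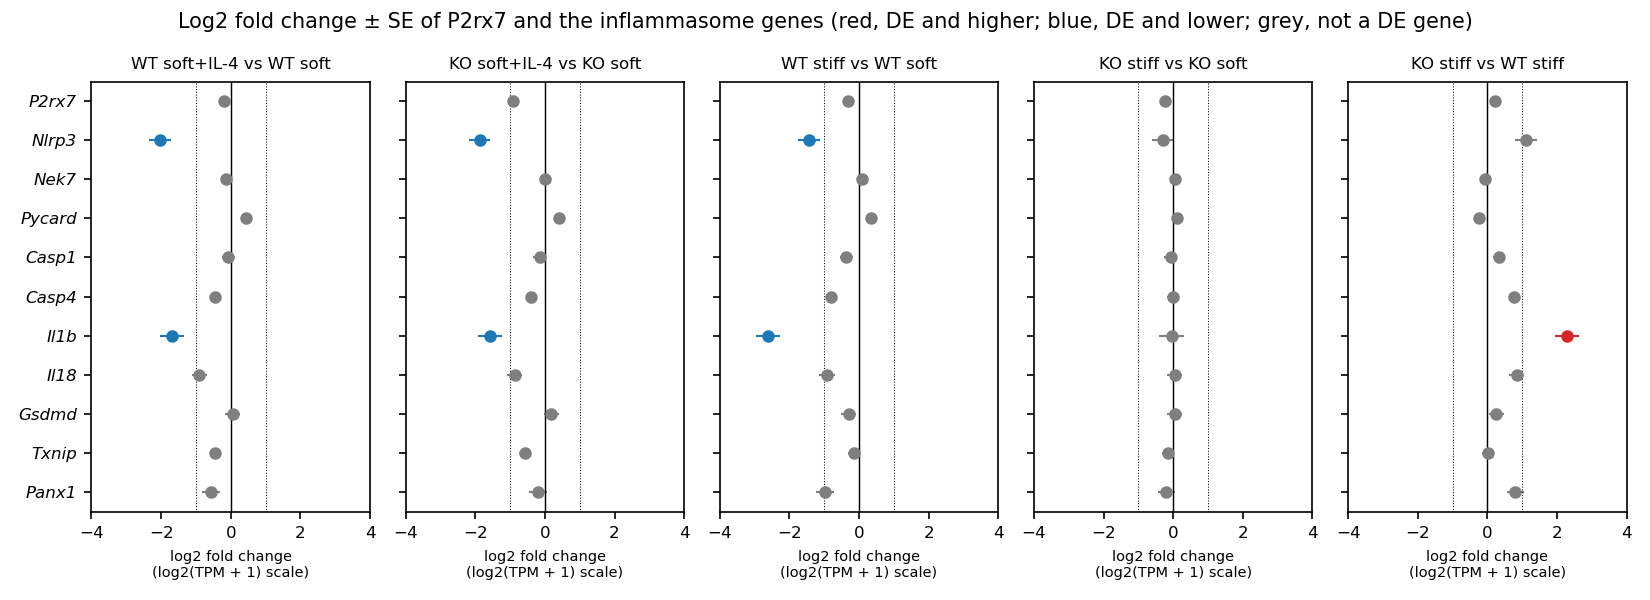
Log2 fold change on the log2(TPM + 1) scale (horizontal axis, with bars of 1 SE from the limma model) of P2rx7 and 10 inflammasome genes in 5 comparisons, dotted lines at a 2-fold change. Il1b and Nlrp3 are below -1 in the 3 comparisons with IL-4 or WT stiff and Il1b is at 2.28 in KO stiff against WT stiff, while P2rx7 lies between -0.90 and 0.21.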

How the data were processed

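The authors deposited 1 table of TPM values for 12 libraries, and the submitters' processing notes name Trim Galore 0.6.7 and Salmon 1.4.0, while the methods of the study describe STAR and featureCounts. The annotation and the choice of genes are not given in the sources used here. The methods of the study give a nominal sequencing output, but the depth of each library is unknown, which limits the precision of P2ry12 and P2ry13 most.

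Groups came from the sample labels. The genes and the pathway and marker lists were chosen with earlier results of these data known. Genes with at least 1 TPM in 2 of 12 libraries were tested on log2(TPM + 1) with limma 3.58.1 (R 4.3.3), with 1 mean for each group over all 12 libraries, a variance trend, and Benjamini-Hochberg adjustment within each of 11 comparisons at 0.05. Named are the 10 genes, the DE genes of the pathway lists (at most 4 per list and comparison), Camkk2, and the 3 genes most correlated with each of the 10. Other genes named in the text were chosen after their values were seen. On simulated data for WT stiff against WT soft, 190 of 200 genes changed by a log2 value of 2 were recovered among 11029 genes, and 5 unchanged genes were called. The simulation gave each gene the same spread in all groups and changed only genes with a mean log2(TPM + 1) above 2. It therefore does not give the recovery of smaller changes, of low genes such as P2ry13, or under the spread seen in WT stiff. Alternatives were a pseudocount of 0.1, no filter, median-of-ratios scaling, only the libraries compared, no variance trend, a replicate block, other thresholds, and libraries left out.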

Additional observations from a re-analysis of the deposited data

Results flagged for a closer look

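The response of P2ry1 to stiffening differed between genotypes by a test of the difference itself. From soft to stiff, its log2 fold change was 1.26 in WT and 0.26 in KO, an interaction of -1.01 (SE 0.190, limma adjusted p = 0.0469), with both KO stiff libraries (8.25 and 7.06 TPM) below both WT stiff libraries (16.5 and 14.9 TPM). The response of Il1b differed likewise, with an interaction of 2.56 (SE 0.490, limma adjusted p = 0.0497). Both adjusted p-values lie just under 0.05, and without WT soft 2, KO soft 1 and KO stiff 1 both were 0.885.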

How the results depend on the processing

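Of 11 comparisons, 5 gave 0 DE genes among the 10 under every alternative. Without WT soft 2, KO soft 1 and KO stiff 1, the count went from 2 to 1 for IL-4 in WT, for stiffening in WT and for IL-4 in KO, and from 1 to 0 for KO stiff against WT stiff and for the interaction of genotype and stiffness. With only the libraries compared, it was 0 for stiffening in WT, KO stiff against WT stiff and the interaction. A limit of 2 on the log2 fold change gave 0 everywhere. With no fold limit there were 6 for IL-4 in KO, 6 for IL-4 over both genotypes and 2 for KO stiff against WT stiff. A pseudocount of 0.1 gave 2 for KO stiff against WT stiff and 0 for the interaction, whose count was also 0 with no filter (more genes tested, P2ry1 adjusted p = 0.0829), with median-of-ratios scaling (0.0535) and with no variance trend (0.0543). Where else the cause is not stated, it was not tested. Leaving out 1 library gave 1 for IL-4 in WT in all 4 fits, 1 to 2 for stiffening in WT, 0 to 2 for IL-4 in KO, 0 to 2 for KO stiff against WT stiff, 3 for IL-4 over both genotypes and 0 to 1 for the interaction. No direction of a called gene reversed. Over all genes, the 421 DE genes for IL-4 in WT were 240 to 309 without 1 library and 117 without the 3, and the 409 for IL-4 in KO were 241 to 325 and 182.

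The replicate numbers were not taken to pair the samples, since the correlation of deviations was over 0.1 in 3 of 15 pairs of groups (-0.0526 to 0.314). These 3 were the pairs among WT soft, KO soft and KO stiff, the groups in which Camkk2 was higher in replicate 1, and the share of genes at 0 was higher in replicate 1 in 6 of 6 groups, so some effect goes with the number. With the replicate block, KO stiff against WT stiff gave 0 of the 10 (P2ry13 adjusted p = 0.0635), IL-4 in WT gave 3 with Adora2b added (adjusted p = 0.0475), and the other 9 counts did not change. The depth of each library is unknown, so the counting error of the low genes P2ry12 and P2ry13 cannot be set against these changes.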

Other observations

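Of 6 tested genes listed around P2ry2 and P2ry6 on chromosome 7, 2 were DE genes with IL-4 in WT (3.76% of all genes), 1 with stiffening in WT (3.97%) and 1 with IL-4 in KO (3.65%). Fchsd2, which lies 80 kb from P2ry2 and encodes an endocytic adaptor, was at 9.29 and 12 TPM in WT soft, 30.4 and 32.1 TPM in WT soft+IL-4 (log2 fold change 1.48, SE 0.189, adjusted p = 0.0014) and 40.6 and 30.2 TPM in WT stiff (1.64, SE 0.189, adjusted p = 0.00072). In KO it was at 10.1 and 13.8 TPM in soft and 36.2 and 33.0 TPM with IL-4 (1.47, SE 0.189, adjusted p = 0.0015), and at 16.4 and 19.1 TPM in stiff. Atg16l2, 250.2 kb from P2ry2 on the minus strand, overlaps Fchsd2 on the plus strand, so reads of both could not be told apart if strand was not used. It was at 9.87 and 9.62 TPM in WT soft and 2.98 and 4.16 TPM in WT soft+IL-4 (-1.25, SE 0.251, adjusted p = 0.0130), and it was no DE gene without WT soft 1, WT soft 2 or WT soft+IL-4 1 (adjusted p = 0.0744, 0.0770 and 0.117). Without the 3 libraries that went against their genotype, Fchsd2 remained a DE gene in these 3 comparisons (adjusted p = 0.0270, 0.0186 and 0.0459) and Atg16l2 did not (0.215). Over the same comparisons, P2ry2 and P2ry6 were not DE genes.

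Of 15 tested genes listed for the chromosome 5 region of P2rx4 and P2rx7, 0 were DE genes with IL-4 in WT or in KO. With IL-4 over both genotypes 1 was, Oasl1 (4.35% of all genes). There were 2 with stiffening in WT (3.97%) and 1 in KO stiff against WT stiff (1.98%). They were the interferon-stimulated genes Oasl1 and Oasl2, which lie 7706 and 7732 kb from P2rx7 and so are no close neighbours. Oasl1 was at 10.6 and 16.3 TPM in WT soft and 0.778 and 3.97 TPM in WT stiff (log2 fold change -2.25, SE 0.455, adjusted p = 0.0137), and at 7.97 and 13.2 TPM in KO stiff (1.92 against WT stiff, SE 0.455, adjusted p = 0.0444). Oasl2 was at 105 and 76.1 TPM in WT soft and 6.00 and 41.3 TPM in WT stiff (-2.39, SE 0.633, adjusted p = 0.0424). Without the same 3 libraries, the adjusted p was 0.190 and 0.226 for Oasl1 and 0.271 for Oasl2. Leaving out WT soft 2 ended the call of Oasl1 in WT stiff (0.105), leaving out WT stiff 1, KO stiff 1 or KO stiff 2 that against KO stiff (0.0949, 0.113 and 0.253), and leaving out WT soft 1 or WT soft 2 that of Oasl2 (0.214 and 0.128). These are related genes, and how any reads that match both were divided is not given, so both carry that uncertainty. With IL-4, Oasl1 was at 3.86 and 4.12 TPM in WT. In KO it was at 8.47 and 15.3 TPM in soft and 6.06 and 6.65 TPM with IL-4. Its call over both genotypes held in 5 of 9 other settings of the fit, which include looser thresholds. Without 1 library its log2 fold change lay between -1.33 and -0.94, so it did not always reach a 2-fold change.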
